A study of Citrus maxima with 6 samples.

Results

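A set of 8 genes, of the 29406 in the table, was expressed in every library of wild-type (WT) pummelo pericarp and was near silent in every library of its orange-pericarp mutant (MT). They were selected on the measured values themselves: an RPKM (reads per kilobase of gene model and per fixed number of mapped reads) of at least 1 in each of WT1, WT2 and WT3 and of at most 0.5 in each of MT1, MT2 and MT3. Of all genes, 13609 met the first limit, 12491 met the second and 9 met both. A list of 4 genes was left out in advance, of which 1, Cs5g28720 (gibberellin 20 oxidase 2), met both limits, and this gave the 8. The levels in WT and MT are therefore a description of how these genes were selected, and no test is given for them. With the limits exchanged between the genotypes and no gene left out, 42 genes were found, beside the 9. Both counts are on RPKM without scaling between libraries, and the exchanged count was not repeated after rescaling.

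The WT was the 'Guanxi' pummelo, a commercial Citrus grandis cultivar, and the MT was a spontaneous bud mutation of it, found in one orchard and propagated by grafting, whose pericarp is orange and accumulates β-carotene. RNA was taken from the pericarp of ripe, untreated fruit, in 3 biological replicates of each genotype that the submitters describe as sample pools. The number of fruits or trees in a pool was not given in the sources used here, so the p-values measure the spread between these 6 libraries only. The MT is 1 mutant lineage, so that any difference between it and the WT stock counts as genotype here. No marker of pericarp could be tied to the locus identifiers, and the tissue was not checked against markers.

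The reads behind the RPKM scale ranged from 9253681 (WT1) to 11108186 (MT1). Across the 16719 genes tested, the log2 values of the WT libraries correlated with each other at Pearson's r of 0.970 to 0.978 and those of the MT libraries at 0.946 to 0.961. MT3 stood apart from its group, since its r with the WT libraries (0.964 to 0.968) was above its r with MT1 (0.961) and MT2 (0.946). With MT3 left out the limits gave 42 genes in place of 8. The 8 stay among them by construction, since leaving out a library only loosens the limits.

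Only 2 of the 8 genes carry a protein name, which comes from the study's own list of changed genes. Cs5g22980 was matched to (R)-limonene synthase 1 and Cs4g08380 to Oligopeptide transporter 5. Limonene synthases are terpene synthases. They turn geranyl diphosphate, a plastid isoprenoid precursor, into limonene, the main monoterpene of citrus peel oil, which is held in the oil glands of the coloured outer pericarp. Carotenoids are made from the same isoprenoid building blocks in the plastid, through the longer precursor geranylgeranyl diphosphate. Oligopeptide transporters are membrane proteins of plants and fungi that move small peptides, and some plant members move metal complexes or glutathione. The other 6 genes (Cs1g20300, Cs1g20330, Cs1g20620, Cs6g07410, Cs7g06860 and orange1.1t04522) have no name in the sources used here, so no role is given for them. By their identifiers 3 genes lie on chromosome 1, 1 each on chromosomes 4, 5, 6 and 7, and 1 carries no chromosome number.

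The 8 genes were weakly expressed in WT as well. Their mean RPKM in WT ranged from 1.28 to 6.74, with a median of 2.83, and in MT from 0 to 0.275. In whole reads, recovered as the fewest that fit the steps of the RPKM values, the 8 genes held 1366 reads in WT and 51 in MT. Of the 24 MT values 7 were 0, spread over 4 genes. In bulk pericarp a lower value can come from fewer cells of a type or from less RNA per cell, and these cannot be told apart.

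**Figure D1:**
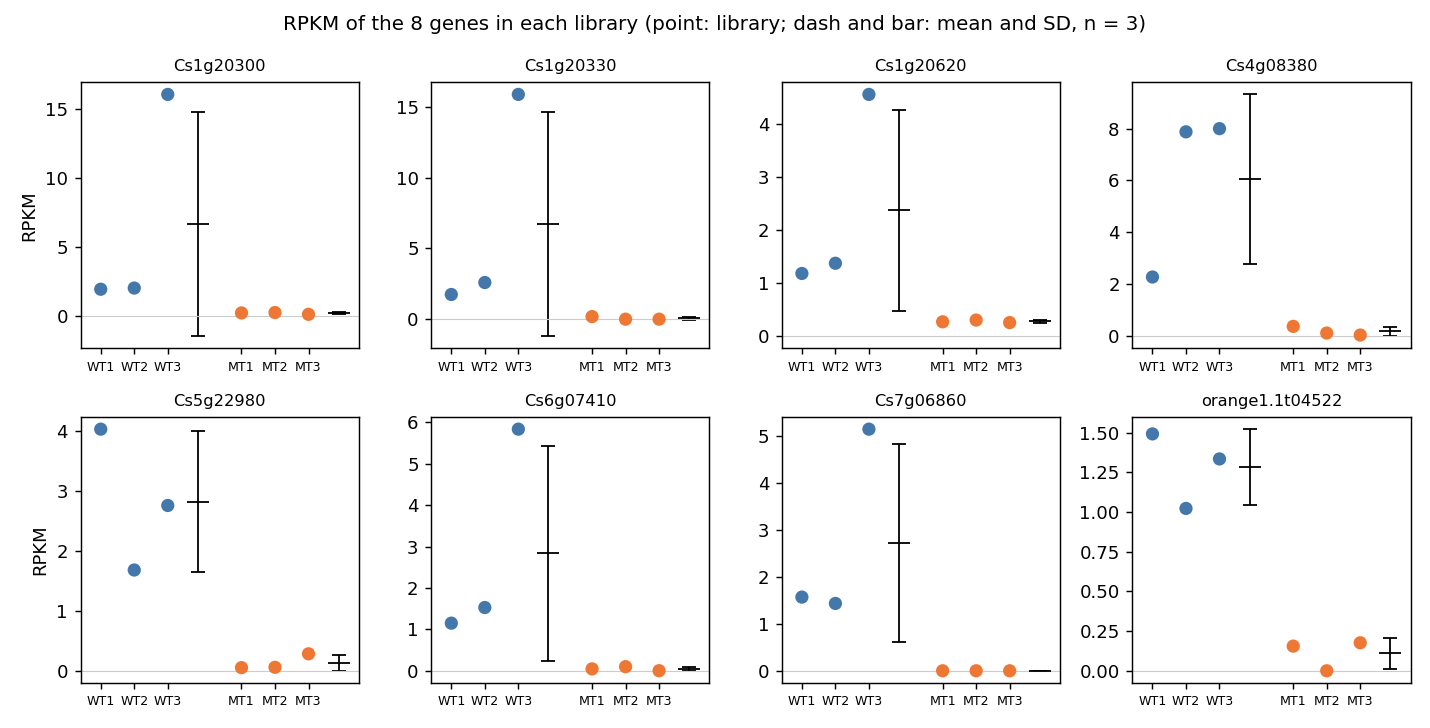
RPKM (vertical axis, linear, its own scale in each panel) of the 8 genes in the 3 WT libraries (blue) and the 3 MT libraries (orange), with the mean as a dash and the SD as a bar (n = 3) to the right of each group. WT3 stands far above WT1 and WT2 in 5 panels, while all MT values lie at or below 0.373.

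Cs5g22980, the limonene synthase match, had an RPKM of 4.03 in WT1, 1.68 in WT2 and 2.76 in WT3, against 0.0494 in MT1, 0.0555 in MT2 and 0.280 in MT3. The 3 WT libraries were spread over 2.40-fold, WT1 was the highest, and MT3 stood above the other MT libraries. WT averaged 2.82 ± 1.18 and MT 0.128 ± 0.131 RPKM (mean ± SD, n = 3 each). The WT libraries held 151 reads of it and the MT libraries 7, and the read ratio, scaled to library totals, was 22.3 (exact Clopper-Pearson 95% interval 10.6 to 56.5). Of the 7 MT reads 5 were in MT3, and without MT3 the ratio was 53.3. The interval, like all intervals on reads here, covers counting error only. On the log2(RPKM + 0.5) scale the difference of MT from WT, relative to the median gene, was -2.51 (standard error 0.33). The added 0.5 pulls the differences of genes this low towards 0, and with 0.1 added the difference was -3.90. Citrus terpene synthases form a family of similar sequences, and the authors counted reads that mapped to a single place, so reads shared with a near-identical copy are not in these values.

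The qRT-PCR primers of the study identify the stretch by which it assayed the gene. They are printed 5′ to 3′, in lower case throughout because no base in them is singled out, and no RPKM value rests on them.
Cs5g22980 forward: gtcctccgcttgcaacaaa
Cs5g22980 reverse: ttgggctggcttgtattcact
Cs4g08380 forward: ccattttgaaatcaccttcattga
Cs4g08380 reverse: caggatggcaactttcatgct
The primers have 19, 21, 24 and 21 bases, with a GC content of 52.6%, 47.6%, 33.3% and 47.6%. Primers were listed for these 2 of the 8 genes. The study ran its qRT-PCR on samples of another year than the RNA-seq. Its text reports that most of the changed genes selected for qRT-PCR matched the RNA-seq data. As used here, that text gives no outcome for either gene by name.

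Cs4g08380, the match to Oligopeptide transporter 5, had an RPKM of 2.28 in WT1, 7.88 in WT2 and 8.0 in WT3, against 0.373 in MT1, 0.114 in MT2 and 0.0384 in MT3. WT2 and WT3 were alike and WT1 was lower, and MT1 held most of the MT reads (11 of 15). WT averaged 6.05 ± 3.27 and MT 0.175 ± 0.175 RPKM (mean ± SD, n = 3 each). With 488 reads in WT it was the most deeply counted of the 8 genes, and the read ratio of WT over MT was 33.7 (95% interval 20.2 to 60.6). Without MT1 the ratio was 80.7. The log2 difference relative to the median gene was -3.29 (standard error 0.47). Its MT1 value of 0.373 was the nearest of all 8 genes to the limit of 0.5.

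On chromosome 1, Cs1g20300 and Cs1g20330 had much the same levels in the WT libraries. Cs1g20300 had an RPKM of 1.95, 2.03 and 16.0 in WT1, WT2 and WT3, against 0.232, 0.260 and 0.131 in MT1, MT2 and MT3. Cs1g20330 had 1.74, 2.59 and 15.9 in the WT libraries, against 0.181, 0 and 0 in the MT libraries. In both genes a single library, WT3, carried most of the WT reads, 129 of 159 for Cs1g20300 and 163 of 205 for Cs1g20330. For this reason their SD exceeded their mean, with 6.68 ± 8.11 (n = 3) for Cs1g20300 and 6.74 ± 7.93 (n = 3) for Cs1g20330. The MT libraries held 5 reads of Cs1g20300 in all and 2 reads of Cs1g20330, both in MT1. No read in MT2 and MT3 allows an RPKM of up to 0.306 and 0.309 for Cs1g20330, taking 3 reads as the limit. The read ratio was 32.9 (95% interval 13.8 to 103) for Cs1g20300 and 106 (95% interval 29.0 to 882) for Cs1g20330. Without WT3 the read ratio was lower, at 9.53 for Cs1g20300 and 33.4 for Cs1g20330. Without MT1 no MT read of Cs1g20330 was left, and against 3 reads it was at least 45.2-fold higher in WT. The log2 differences were -2.88 (standard error 0.71) and -3.28 (standard error 0.70), and without WT3 they were -1.96 and -2.39.

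Cs1g20620, also on chromosome 1, had the smallest read ratio among the 7 genes with a read in MT. Its RPKM was 1.18, 1.37 and 4.56 in WT1, WT2 and WT3, against 0.268, 0.302 and 0.254 in MT1, MT2 and MT3. Its MT values lay close together and all MT libraries held reads, 17 in all, so this gene was low in MT and not silent. WT averaged 2.37 ± 1.90 and MT 0.275 ± 0.0245 RPKM (mean ± SD, n = 3 each). The read ratio was 8.83 (95% interval 5.33 to 15.6). Without WT3 it was 4.67.

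Cs6g07410 had an RPKM of 1.15, 1.53 and 5.84 in WT1, WT2 and WT3, against 0.0435, 0.0978 and 0 in MT1, MT2 and MT3. Again WT3 was the high library, with 125 of 179 WT reads, while the MT libraries held 3 reads together. WT averaged 2.84 ± 2.60 and MT 0.0471 ± 0.0490 RPKM (mean ± SD, n = 3 each). The read ratio was 61.8 (95% interval 20.8 to 302), and it was 28.6 without WT3 and 126 without MT2, when 1 MT read was left.

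Cs7g06860 was the single gene of the 8 with no read in any MT library. It also had the shortest recovered length, 207 bp, which is the smallest that fits its values. RPKM values were 1.57, 1.43 and 5.14 in WT1, WT2 and WT3, and with that length these values stand for only 3, 3 and 11 reads. At this length 1 read is worth 0.435 to 0.522 RPKM, so that a single read decides between 0 and a value next to the limit of 0.5. Against a limit of 3 reads over the MT libraries together, and with the 17 WT reads taken as exact, it was at least 5.87-fold higher in WT. This bound was 3.18 without WT3 and 3.75 without MT1. With counting error in both genotypes, the lower end of the exact 95% interval on all libraries was 4.27. Within each MT library, 3 reads would allow an RPKM of up to 1.30, 1.47 and 1.48, and the limits of MT2 and MT3 are above the value of WT2 (1.43). At this depth the gene was not detected in MT, and its absence there was not shown.

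The gene orange1.1t04522 had an RPKM of 1.49, 1.02 and 1.34 in WT1, WT2 and WT3, against 0.155, 0 and 0.176 in MT1, MT2 and MT3. Its WT libraries lay closer together than those of any other of the 8 genes, with 1.28 ± 0.239 (SD, n = 3), and its level was the lowest. It rests on 22 reads in WT and 2 in MT, with a read ratio of 11.4 and a wide interval (95% interval 2.80 to 99.9).

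The values close to the limits were as follows. The lowest WT library of orange1.1t04522 (1.02), Cs6g07410 (1.15), Cs1g20620 (1.18), Cs7g06860 (1.43) and Cs5g22980 (1.68) lay nearest above 1. The highest MT library of Cs4g08380 (0.373), Cs1g20620 (0.302), Cs5g22980 (0.280), Cs1g20300 (0.260) and Cs1g20330 (0.181) lay nearest below 0.5. Just short of the WT limit were Cs8g10380 (lowest WT library 0.948), Cs5g31010 (0.906), Cs5g01530 (0.882), Cs2g25720 (0.878) and Cs1g23250 (0.869), none of which has a name. In all 5 of them WT3 was the high library, at 3.55 to 6.86 times the higher of WT1 and WT2. Just over the MT limit were Cs2g06670 (highest MT library 0.531), orange1.1t04895 (0.623), Cs5g28750 (0.654), Cs6g15040 (0.684, a match to purple acid phosphatase 20) and Cs7g31030 (0.727). The limits thus cut through a continuous range of values, with no gap around the 8 genes.

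**Figure D2:**
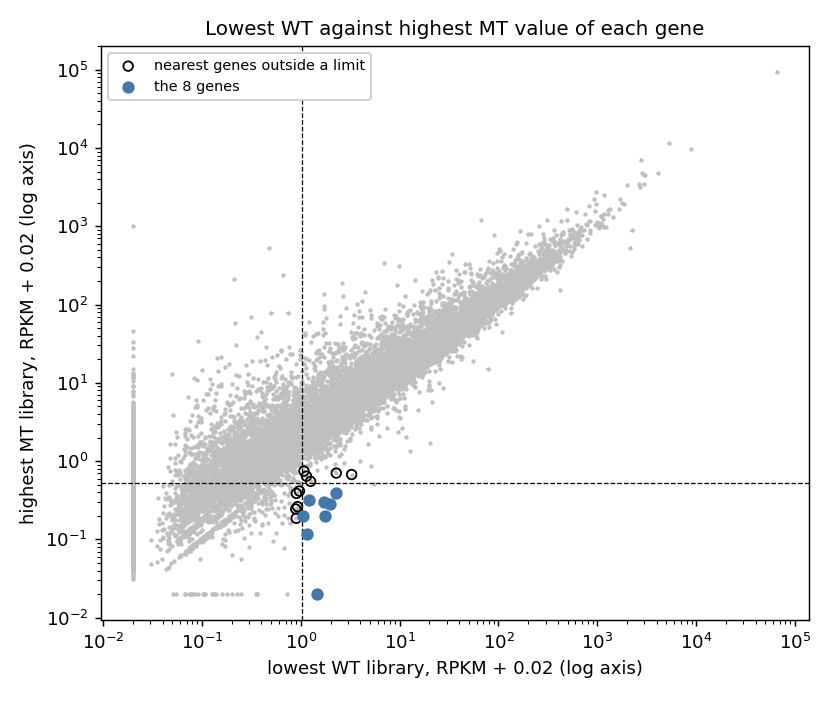
Lowest WT library (horizontal) against highest MT library (vertical) of every gene with a read, both as RPKM + 0.02 on log axes, with dashed lines at the limits of 1 and 0.5. The 8 genes (blue) fill the lower right corner at WT values just above 1, and the nearest genes outside a limit (open circles) lie beside them with no gap.

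In the comparison of all genes, the MT libraries lay wholly below the WT libraries in 896 of 16719 tested genes (5.36%), and the limits place all 8 genes among them. They lay wholly above in 3893 (23.3%). By limma with Benjamini-Hochberg adjustment over all tested genes, 3 genes were lower in MT (0.0179% of those tested) and 3 were higher at an adjusted p of 0.05, or 7 lower and 4 higher after rescaling by the median ratio. At an adjusted p of 0.1, 90 genes were lower (0.538%) and 337 higher. The study, with a count model (DESeq) on the same libraries, called many more genes at an adjusted p of 0.05. Of its list of changed genes 291 rows are used here. Because this contrast selected the 8 genes, their own p-values are not given. The log2 differences of the 8 genes ranged from -3.29 to -1.70 with a median of -2.58, where the median over all genes tested is 0 by construction.

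The WT3 library held the largest part of the WT signal of these genes, a feature the limits did not use directly, since they set only a lower bound on each WT library. Of the 1366 WT reads of the 8 genes, 209 were in WT1, 354 in WT2 and 803 in WT3, although the libraries differed little in total reads. WT3 was the highest WT library in 6 of the 8 genes, and in 5 of them (Cs1g20300, Cs1g20330, Cs1g20620, Cs6g07410 and Cs7g06860) it was over 2-fold above both WT1 and WT2. The factor over the higher of WT1 and WT2 was 7.89, 6.14, 3.32, 3.82 and 3.28 in these genes. In Cs4g08380 it was 1.02, in orange1.1t04522 0.894 and in Cs5g22980 0.684. All 5 genes with a high WT3 were unnamed, and both named genes lacked the pattern, as did the unnamed orange1.1t04522. Names come only from the study's list of changed genes. That list was drawn up on these same libraries, so having a name is not independent of these values. Among the 13609 genes with at least 1 RPKM in each WT library, WT3 was over 2-fold above both others in 56 (0.411%), WT1 in 35 (0.257%) and WT2 in 146 (1.07%). In the same 13609 genes WT3 was the highest WT library in 31.6%, WT1 in 44.2% and WT2 in 24.3%. Over all genes tested the share over 2-fold was 1.64% for WT3, 1.45% for WT1 and 2.38% for WT2. A difference of genotype drawn from these 5 genes therefore rests on WT libraries that differed by 3.59- to 9.11-fold among themselves. What sets WT3 apart in them was not tested.

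**Figure D3:**
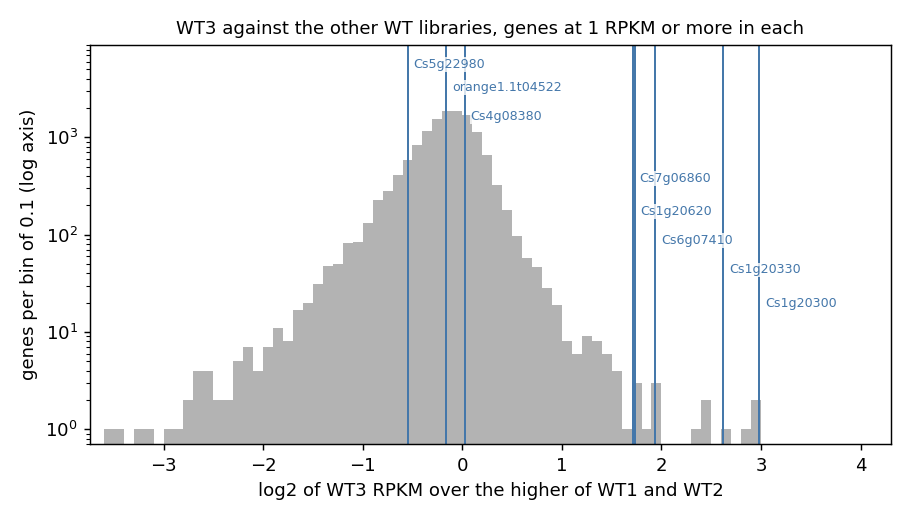
Distribution, over the 13609 genes with at least 1 RPKM in each WT library, of the log2 ratio of WT3 to the higher of WT1 and WT2 (horizontal axis), as the number of genes per bin (vertical, log axis). Blue lines mark the 8 genes, of which 5 lie in the far right tail, between ratios of 3.28 and 7.89, and 3 lie near the middle.

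The highest MT library by RPKM was MT1 in 2 genes, MT2 in 3 and MT3 in 2, and in Cs7g06860 all were 0. MT1, MT2 and MT3 held 2, 2 and 1 reads of Cs1g20300, 6, 6 and 5 of Cs1g20620 and 1, 0 and 1 of orange1.1t04522. In these genes library totals and not reads settled which was highest. In Cs1g20330 and Cs6g07410 the highest library held 2 reads. The order within MT was therefore not resolved for most of the 8 genes. Among the 896 genes that lay wholly lower in MT, MT3 was the highest MT library in 549 (61.3%). The limit of 0.5 on every MT library applies to MT3 as well, and leaving MT3 out widened the selection to 42.

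The genes that follow or precede the 8 by locus number were looked at because position was not used in the selection. There were 16 such neighbours, of which 11 were tested, 3 were listed at 0 in all libraries and the other 2 were below the level tested. Among the 11, the MT libraries lay wholly below the WT libraries in 4 and wholly above in 1, beside 5.36% and 23.3% of all genes tested. Both shares were counted on RPKM without scaling between libraries, where the median gene was 0.15 higher in MT on the log2 scale. In limma 1 of the 11 was lower at an adjusted p of 0.05, and 2 at 0.1. The 1 was Cs4g08370, which is also among the 4 and was one of the genes left out in advance by name. Each of the 4 lay next to a different member. Neighbouring locus numbers say that the gene models follow each other and give no distance. Without strand in the libraries, reads of overlapping neighbours cannot be told apart.

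The strongest neighbour was Cs4g08370, a match to Oligopeptide transporter 1, directly before Cs4g08380 and one of the genes left out in advance. Its RPKM was 20.2, 41.2 and 35.7 in WT1, WT2 and WT3, against 1.67, 0.342 and 0.345 in MT1, MT2 and MT3. WT1 was the lowest WT library and MT1 the highest MT library, the same as in Cs4g08380. Its WT mean was 32.4 ± 10.9 RPKM (SD, n = 3) beside 6.05 ± 3.27 for Cs4g08380. It was lower in MT by limma, with a log2 difference of -4.92 (standard error 0.44, adjusted p = 0.0383). The call was lost without WT1 (adjusted p = 0.104), WT2 (0.121), WT3 (0.216) or MT2 (0.0583), and with voom (0.0906), and the adjusted p ranged from 0.0102 to 0.216 over the limma alternatives. Of the 229 named rows used here of the study's list of changed genes, which was drawn up on these same libraries, these 2 carried the name of an oligopeptide transporter. On the other side, Cs4g08390 had no more than 2 reads in all libraries together. Cs4g08360, 2 numbers before, was higher in all MT libraries (1.86, 6.04 and 2.36) than in WT (0.559, 0.510 and 0.115), with a limma adjusted p of 0.0949.

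Cs6g07400, a match to Laccase-7, precedes Cs6g07410. Laccases are copper-containing oxidases of the cell wall that act on phenolics such as lignin precursors. Its RPKM was 10.6, 45.7 and 35.8 in WT1, WT2 and WT3, against 2.65, 1.58 and 2.18 in MT1, MT2 and MT3. Its WT1 value was the low one and WT3 lay below WT2, so it lacked the high WT3 of Cs6g07410. The log2 difference was -3.50 (standard error 0.51) and missed the threshold in limma (adjusted p = 0.0608), with a range of 0.0329 (without MT3, where it passed) to 0.264 over the alternatives. The study's own list of changed genes, from a count model on these libraries, holds Cs6g07400.

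Around Cs1g20300 and Cs1g20330 the pattern of the members returned in the gene before each of them and was missing from the gene after each. Cs1g20290, before Cs1g20300, stood at 0.716, 1.31 and 7.52 RPKM across the WT libraries, against 0, 0 and 0.169 in the MT libraries, on 59 reads in WT and 1 in MT. Cs1g20320, before Cs1g20330, had 0.350, 0.320 and 1.25 in the WT libraries, against 0, 0.164 and 0.165 in the MT libraries, on 12 and 2 reads. In both, WT3 was again far above the others, 5.75-fold for Cs1g20290 and 3.58-fold for Cs1g20320. Neither passed the limma threshold, with an adjusted p of 0.140 (0.0926 to 0.306 over the alternatives) for Cs1g20290 and 0.233 (0.207 to 0.487) for Cs1g20320. The gene between, Cs1g20310, had 2.40, 1.80 and 2.46 in WT and 1.0, 1.29 and 3.08 in MT, with overlapping groups and no raised WT3 (adjusted p = 0.578). Cs1g20340, after Cs1g20330, was slightly higher in all MT libraries (8.84, 10.5 and 10.1) than in WT (7.21, 6.59 and 6.86), with an adjusted p of 0.154. Of the 8 successive locus numbers from Cs1g20280 to Cs1g20350, 4 were thus low in MT with a high WT3, as 2 adjacent pairs with Cs1g20310 between them.

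**Figure D4:**
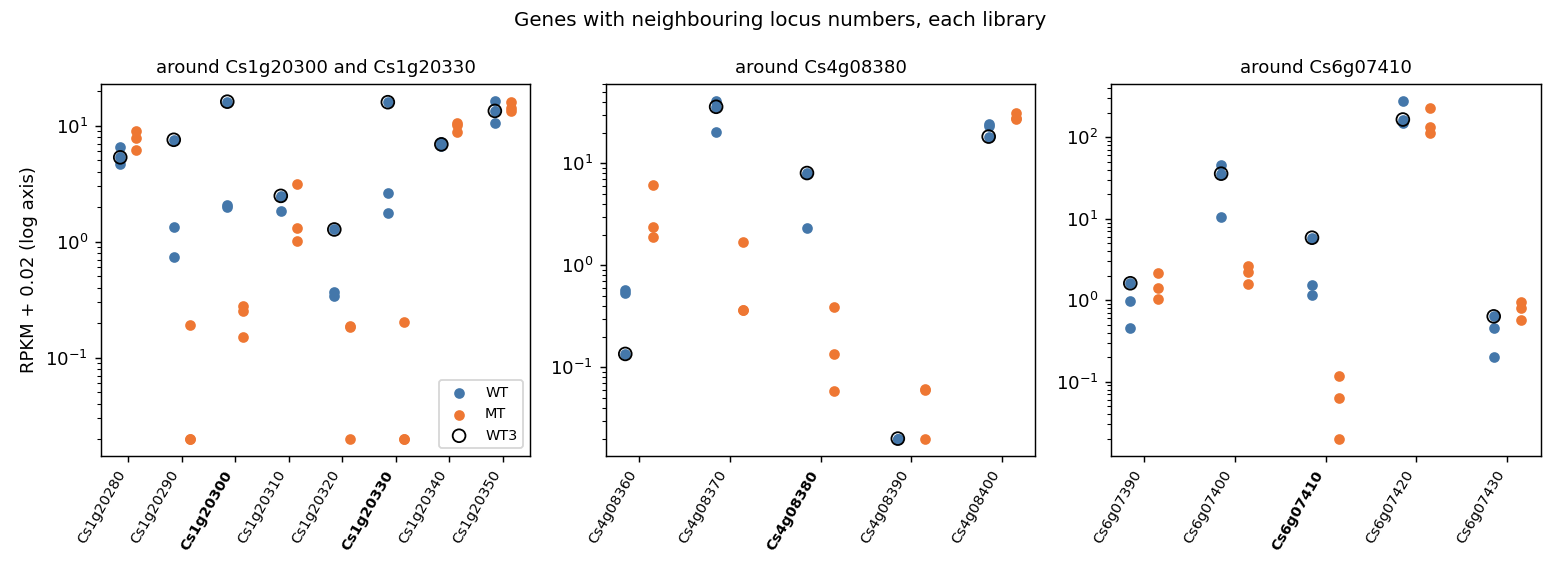
RPKM + 0.02 (vertical, log axis) in each WT library (blue, WT3 ringed) and MT library (orange) for genes with neighbouring locus numbers around Cs1g20300 and Cs1g20330, Cs4g08380 and Cs6g07410 (members in bold). Cs4g08370 and Cs6g07400 lie wholly lower in MT beside their members, and WT3 leads in Cs1g20290, Cs1g20300, Cs1g20320 and Cs1g20330 but not in Cs1g20310 or Cs1g20340.

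Beside Cs5g22980, the limonene synthase match, Cs5g22970 and Cs5g22990 were listed at 0 in all 6 libraries, so the low MT level had no counterpart to compare there. No other of the named rows used here of the study's list carried limonene in its name. For the remaining members, the tested neighbours of Cs1g20620, Cs7g06860 and orange1.1t04522 had overlapping WT and MT libraries.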

How the data were processed

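The authors sequenced poly(A) RNA with an unstranded kit, aligned single-end reads to the sweet orange genome with TopHat (the submitters' notes name Bowtie2 2.1.0), allowed few mismatches and kept uniquely mapped reads. The deposited values are RPKM per gene, without scaling between libraries. The read counter and annotation version are not given in the sources used here. All 6 columns were used (0 unused). The read total and gene lengths were recovered from the steps of the RPKM values. For each gene the shortest length giving whole reads within 0.005 reads was kept, and its multiples fit as well. That 100% of 23454 genes with a value found such a length is therefore a weak check. The recovered reads made up 99.7% of the read total in each library, a sum that says little of low genes. Lengths and reads of low genes are the smallest that fit.

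The test, limma 3.58.1 under R 4.3.3, took genes averaging 0.3 RPKM or more, on log2(RPKM + 0.5), eBayes with an intensity trend, no block, Benjamini-Hochberg adjustment. This test fits RPKM, whereas the authors used DESeq on counts. The median gene was 0.15 higher in MT on the log2 scale, and log2 differences are given relative to it. Their standard errors and p-values are those of the unshifted test. The RPKM filter was passed by all 8 genes through their WT level. Read ratios have exact Clopper-Pearson intervals at 95%, and a value of 0 was bounded by 3 reads. Python 3.11.15 with scipy 1.17.1 served for the other steps.

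Every selected gene is named, with the 5 nearest inside and outside each limit and the adjacent locus numbers. Names come from the 291 rows used here of the study's list of changed genes, 62 of which have none. The limits, the genes and the lists were chosen with earlier results of these data known. Replicate numbers were not taken as a pairing of the libraries. Alternatives were other limits, pseudocounts, filters, rescalings, robust eBayes, limma voom on recovered whole reads, a replicate block, and leaving out each library. Those on neighbours, on WT3 and on read ratios were chosen after seeing the data. The procedure was tested on simulated data.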

Additional observations from a re-analysis of the deposited data

How the results depend on the processing

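The number of genes meeting the limits (8) was 1 with a WT limit of 2, 41 with a WT limit of 0.5, 27 with an MT limit of 1 and 82 with the limits on means. Leaving out 1 library gave 9 to 42 genes, the highest without MT3 and 23 without WT1. All 8 were kept each time by construction, since leaving out a library only loosens the limits. An MT limit of 0.3 gave 6, equal sums 8 and the median ratio 10.

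The count of genes lower in MT at an adjusted p of 0.05 (3) was 5 with a pseudocount of 0.1, with a mean RPKM of at least 3 and with robust eBayes, 7 after rescaling by the median ratio, 0 with voom (808 at an unadjusted p under 0.05) and 90 at an adjusted p of 0.1. Leaving out 1 library gave 0 to 315, the highest without MT3. It was 0 without WT1, WT2 or WT3, with 563, 830 and 434 genes at an unadjusted p under 0.05 in limma. With the replicate block 31 genes were lower and 91 higher. Same-numbered libraries deviated together at r of -0.05, 0.19 and 0.16 for numbers 1, 2 and 3. WT2 correlated best with MT2 and WT3 with MT3, while WT1 correlated best with MT3 (0.16). The numbers were not taken as a pairing, but these values do not settle whether the libraries were paired.

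The causes of these changes were not tested. Of 96 alternative log2 differences of the 8 genes, 78 moved by less than the spread between replicates, 18 moved by more and 0 reversed. In each gene the limits place every WT value above every MT value, so the absence of a reversal follows from the selection. Those that moved were 8 with voom, 7 with a pseudocount of 0.1 and 3 with 1. Of the read ratios with 1 library left out, 2 moved by more than the spread between replicates and 39 by less. The rest have no ratio because no MT read was left. Without WT3 the ratio fell from 32.9 to 9.53 for Cs1g20300 and from 106 to 33.4 for Cs1g20330. Both falls counted among the 39, since the high WT3 itself widens that spread. These tallies therefore do not measure how far such genes depend on WT3. Of the neighbours, 4 to 6 lay wholly lower in MT when 1 library was left out, and 4 after either rescaling. The shares over all genes were not recounted under these settings, so the contrast with them was not followed there. Low read numbers limit Cs7g06860 and orange1.1t04522 most.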

Other observations

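Outside the 8 genes, a high WT3 was also seen together with a low MT. Among the 56 genes with at least 1 RPKM in each WT library and WT3 over 2-fold above both others, the MT libraries lay wholly below WT1 and WT2 in 19 (33.9%). Without the 5 genes selected by the limits this was 14 of 51 (27.5%), beside 957 of all 13609 such genes (7.03%). Of the 35 genes in which WT1 was over 2-fold above both others, MT lay wholly below the other WT libraries in 1 (2.86%), and of the 146 with a high WT2 in 5 (3.42%). The classes were formed after the values had been seen, and no test is given. MT lay wholly above WT1 and WT2 in 7 of the 56 genes (12.5%), beside 3634 of all such genes (26.7%). None (0) of the 56 was in the rows used here of the study's list of changed genes, so none has a name.

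On chromosome 8, a run of 11 locus numbers from Cs8g10300 to Cs8g10400 held 3 genes with a high WT3 and MT wholly below WT, among others without. It was singled out after its values had been seen. Cs8g10300 had an RPKM of 12.6, 18.6 and 136 in WT1, WT2 and WT3, against 0.677, 0 and 1.34 in MT1, MT2 and MT3. Cs8g10340 stood at 5.09, 5.81 and 43.4 across the WT libraries and at 0.635, 0 and 0.841 across the MT libraries. Both missed the MT limit in MT1 and MT3, and Cs8g10380 missed the WT limit in WT1 alone. Cs8g10390 also had a high WT3 (51.3, 13.7 and 136 in WT), but its MT3 of 22.2 was above its WT2. The same held for Cs8g10400 (26.9, 26.9 and 60.2 in WT), whose MT3 of 34.6 was above WT1 and WT2. Between them, Cs8g10310 had overlapping groups and no high WT3 (9.62 to 12.7 in WT and up to 14.8 in MT). Cs8g10370 was higher in every MT library (9.22, 13.5 and 5.94) than in WT (2.24, 3.11 and 1.81), and the other 4 genes were below 0.5 RPKM in every library.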
